A study of Mus musculus with 12 samples.

Results

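Reactive glia genes known as targets of the transcription factor STAT3 were examined in the dorsal raphe (DR) of mice that lack STAT3 in serotonergic cells. The set holds 10 genes, taken by their symbols from the 24421 genes of the count table: Gfap, Vim, Serpina3n, Lcn2, Timp1, Cd44, Cebpd, Cp, Bcl3 and S1pr3. All 10 were found, and 8 passed the filter on low counts that left 15453 genes for testing, while Lcn2 and Timp1 did not pass it. The measurement was bulk RNA sequencing of a square of tissue below the cerebral aqueduct, dissected from 4 sections of 300 µm, with 1 library per animal. The 4 controls (Sert Cre/+; Stat3 fl/+) and 8 STAT3 KO mice (Sert Cre/+; Stat3 fl/fl) were adult littermates on a C57BL/6 x 129 background, with 2 females and 2 males among the controls and 4 of each sex among the STAT3 KO mice. Both genotypes thus carried the Cre allele and at least 1 floxed Stat3 allele. Cre is driven by the serotonin transporter gene, so deletion is aimed at serotonergic neurons and not at the glia that make most of the proteins described here. No untouched wild-type group was analysed here.

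Astrocytes and microglia respond to injury, infection or cytokines by becoming reactive. Cytokines of the interleukin-6 family bind receptors that share the gp130 subunit, Janus kinases then phosphorylate STAT3, and the STAT3 dimer enters the nucleus and activates genes of the acute phase and of the cytoskeleton. In astrocytes, STAT3 is known for its part in raising Gfap and Vim after injury and in forming the glial scar. Several of the 10 genes are also known targets of C/EBP and NF-kappaB factors, which act beside STAT3 in inflammation.

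Promoters of 4 of the genes, Gfap, Lcn2, Bcl3 and Vim, are shown as examples. Each sequence runs from 250 bases before to 50 bases after a transcription start in RefSeq (GRCm38.p6), 5′ to 3′ on the gene's own strand, and 9 of the 10 genes had such a window, all but Cebpd. Capitals mark a match to TTCNNNGAA (the palindromic STAT element), TTGCNNAA (a C/EBP element) or GGGA, 4 bases of any kind and CC (an NF-kappaB element), searched on both strands, with no match overlapping another. All 4 windows shown hold a match, while the windows of Cd44 and Timp1, not shown, hold none.
Gfap, chr11:102897151-102897450, minus strand: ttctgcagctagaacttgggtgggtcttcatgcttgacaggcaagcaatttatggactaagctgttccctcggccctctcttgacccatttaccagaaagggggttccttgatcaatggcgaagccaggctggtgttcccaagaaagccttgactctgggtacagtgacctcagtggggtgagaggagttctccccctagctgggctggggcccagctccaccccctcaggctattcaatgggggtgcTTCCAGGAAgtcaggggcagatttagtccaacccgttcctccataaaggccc
Lcn2, chr2:32387690-32387989, minus strand: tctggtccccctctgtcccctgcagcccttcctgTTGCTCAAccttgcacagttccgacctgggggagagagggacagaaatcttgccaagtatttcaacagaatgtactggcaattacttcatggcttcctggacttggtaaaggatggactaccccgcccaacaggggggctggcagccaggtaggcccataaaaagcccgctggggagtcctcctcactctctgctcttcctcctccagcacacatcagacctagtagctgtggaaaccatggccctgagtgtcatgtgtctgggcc
Bcl3, chr7:19822706-19823005, minus strand: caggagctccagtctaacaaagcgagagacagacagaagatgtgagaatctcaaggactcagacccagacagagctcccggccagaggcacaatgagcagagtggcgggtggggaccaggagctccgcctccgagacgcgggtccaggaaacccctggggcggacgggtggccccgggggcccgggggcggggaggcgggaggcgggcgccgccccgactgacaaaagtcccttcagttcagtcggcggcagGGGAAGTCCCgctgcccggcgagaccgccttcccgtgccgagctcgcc
Vim, chr2:13574061-13574360, plus strand: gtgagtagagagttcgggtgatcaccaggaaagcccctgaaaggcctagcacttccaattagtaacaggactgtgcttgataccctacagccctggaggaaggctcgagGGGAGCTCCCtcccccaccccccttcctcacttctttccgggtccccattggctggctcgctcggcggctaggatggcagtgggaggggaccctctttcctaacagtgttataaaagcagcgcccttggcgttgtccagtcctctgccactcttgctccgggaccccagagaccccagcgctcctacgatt

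The STAT element letters occurred in 1 of the 9 genes, Gfap, as TTCCAGGAA at position -2 from the start, against 9.27% of the 17224 genes in the count table with a window. The C/EBP letters occurred in 2 of 9, Lcn2 (TTGCTCAA at -216) and Cp (TTTTGCAA, the element read on the other strand, at -70), against 11.5% of genes. The NF-kappaB letters occurred in 5 of 9, namely Bcl3, Cp, S1pr3, Serpina3n and Vim, against 25.8%. A match describes letters and not a site in use, and no match says only that the letters are not in this window.

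Counting depth was 24379588 to 29645210 gene counts per library, and levels are given as CPM, read counts scaled to the library's total over all gene rows. At this depth 3 counts equal 0.101 to 0.123 CPM. Differences are log2 fold changes, STAT3 KO over control, from edgeR's quasi-likelihood test with Benjamini-Hochberg adjustment over all 15453 genes, beside a two-sided exact permutation test over the 495 divisions of 12 animals into 4 and 8, whose smallest possible p is 0.00202. Each library comes from a separate animal, so these p-values measure the spread between animals. In bulk tissue, fewer cells of a type and less RNA per cell cannot be told apart. The libraries held the serotonergic genes of the labelled region at high levels (Tph2, the brain enzyme of serotonin synthesis, 539 to 883 CPM, and the serotonin transporter Slc6a4, 150 to 410 CPM). The targeted gene, Stat3 (chr11:100885098-100939540 in mm10), averaged 65.9 CPM among controls (SD 1.26, n = 4) and 66.6 CPM among STAT3 KO mice (SD 2.90, n = 8), a log2 fold change of -0.0077 (SE 0.039, adjusted p = 0.992, edgeR; exact permutation p = 0.693). Counts over the whole gene do not resolve the deleted exons and are summed over all cells of the tissue, so this value does not check the labels.

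None of the 8 genes differed between genotypes after adjustment, as was the case for every gene of the table (0.0% called, smallest adjusted p = 0.387 by edgeR). The edgeR test left 1184 genes below 0.05 without adjustment, and DESeq2 called 6 of the genes of the table after adjustment and 1244 before, none of these 6 among the 10. Vim and Cd44 were below 0.05 unadjusted, 2 of 8 genes against 7.66% of all tested genes, and both were higher in STAT3 KO mice, against 3.61% of all tested genes. The exact permutation test gave the same pair, against 7.23% of all tested genes. The median log2 fold change was 0.10 over the 8 genes and -0.0011 over all tested genes, and 6 of 8 were positive against 49.4%.

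**Figure D1:**
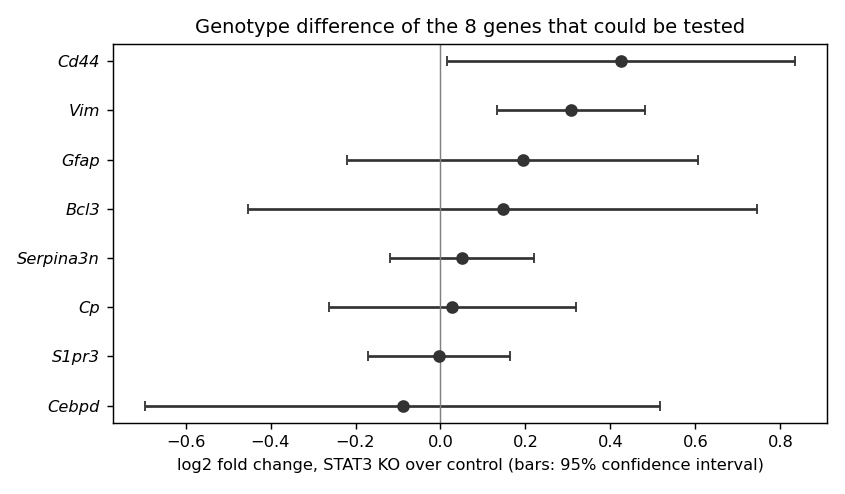
Log2 fold change of STAT3 KO over control (x axis) for the 8 genes that passed the filter (y axis), with 95% confidence intervals from edgeR's quasi-likelihood test. Only the unadjusted intervals of Vim (0.13 to 0.48) and Cd44 (0.016 to 0.83) lie above 0.

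Per kilobase of exon, Serpina3n had the highest level of the 10 genes, with a median of 14.8 CPM per kilobase over the 12 animals, followed by Vim (8.74) and Gfap (7.57). S1pr3 (2.57) and Cp (2.08) formed a middle group, and Cebpd (0.695), Bcl3 (0.333) and Cd44 (0.253) were lower. Timp1 (0.121) and Lcn2 (0.0546) had the lowest medians. The ranges over animals did not overlap between Serpina3n and Vim, between Gfap and S1pr3 and between Cp and Cebpd, while the other neighbours in this order overlapped.

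The intermediate filament genes were taken first. Vimentin (Vim, chr2:13573927-13582826) forms filaments in astrocytes, and also in ependymal cells, vessels and fibroblasts. Vim stood at 37.1, 34.5, 36.7 and 38.4 CPM in controls 3, 4, 11 and 13. It stood at 42.5, 44.8, 46.9, 40.4, 52.0, 47.8, 38.8 and 55.5 CPM in STAT3 KO 5, 6, 7, 8, 10, 14, 15 and 16. Every STAT3 KO animal lay above every control, with STAT3 KO 15 closest to control 13, a separation found in 0.362% of all tested genes and in 1 of the 8. The means were 36.7 ± 1.58 CPM (SD, n = 4) and 46.1 ± 5.69 CPM (SD, n = 8), so that the mean was 25.8% higher in STAT3 KO mice. The log2 fold change was 0.31 (SE 0.082, 95% confidence interval 0.13 to 0.48, unadjusted p = 0.00187, adjusted p = 0.615, edgeR), with an exact permutation p of 0.00808, and Vim ranked 32 of all tested genes by unadjusted p. Without any 1 animal the log2 fold change stayed between 0.27 and 0.34.

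Glial fibrillary acidic protein (Gfap, chr11:102887336-102900912), the filament that defines reactive astrocytes, varied more than Vim. Gfap stood at 20.7, 31.5, 32.6 and 32.6 CPM in controls 3, 4, 11 and 13. It stood at 30.7, 20.6, 38.4, 27.6, 55.1, 32.4, 30.7 and 36.9 CPM in the STAT3 KO animals in the order above. The genotypes overlapped in part, with STAT3 KO 7, 10 and 16 above all controls and STAT3 KO 6 just below the lowest, control 3. STAT3 KO 10 was at the top, 1.43 times the next animal. The means were 29.3 ± 5.77 CPM (SD, n = 4) and 34.1 ± 10.1 CPM (SD, n = 8), and the log2 fold change of 0.19 (SE 0.19, 95% interval -0.22 to 0.61, adjusted p = 0.878, edgeR) did not pass the test. It was 0.061 without STAT3 KO 10 and 0.063 without control 3. Within genotypes the SD of log2 CPM was 0.38 for Gfap, larger than that of 91.2% of tested genes, and 0.15 for Vim, larger than that of 63.6%. Over the 12 animals both filament genes had a Pearson's r of 0.50, a description only. This r was 0.13 without STAT3 KO 16 and STAT3 KO 10, the animals farthest from the median of Vim. It was 0.53 without STAT3 KO 10 and STAT3 KO 6, the animals farthest from the median of Gfap, and 0.58 within STAT3 KO animals.

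**Figure D2:**
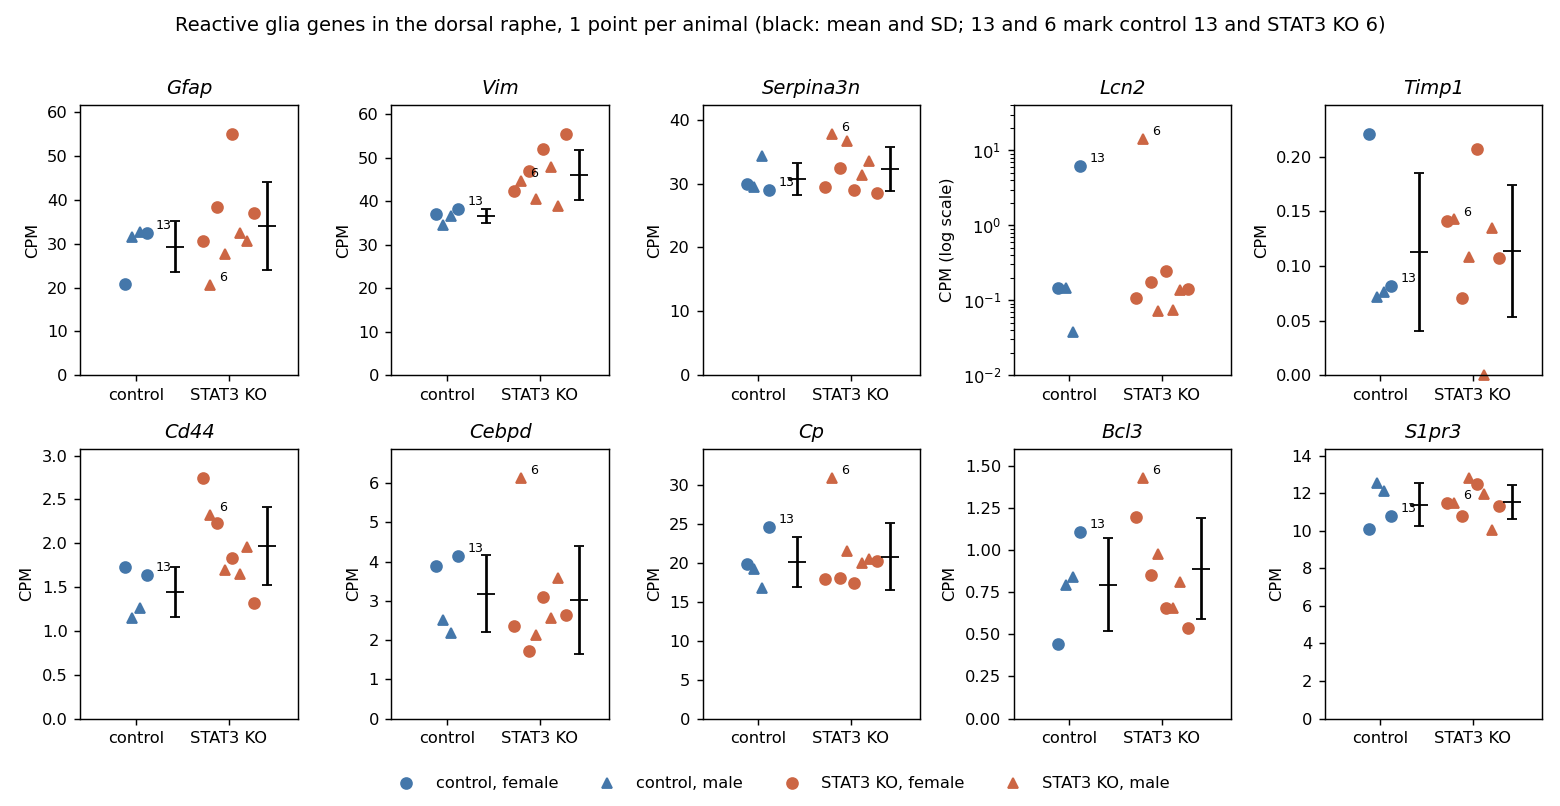
CPM of each of the 10 genes (y axes, a log scale for Lcn2) by genotype (x axes), 1 point per animal, circles for females and triangles for males, with black bars for the mean and SD, left out for Lcn2. The Vim values of the genotypes do not overlap, while 1 control (control 13, 6.19 CPM) and 1 STAT3 KO animal (STAT3 KO 6, 14.1 CPM) stand above all others for Lcn2.

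The ependymal cells that line the aqueduct lie next to the dissected square, and their markers moved with Vim. The summed level of 7 ependymal genes, all detected, was 25.4 to 76.0 CPM in controls and 40.3 to 104 CPM in STAT3 KO animals. All 7 had a positive log2 fold change, against 49.4% of all tested genes, with a median of 0.86. Of the 7, 4 were higher and below 0.05 unadjusted, against 3.61% of all tested genes, among them the cilium gene Rsph1 (log2 fold change 0.86, SE 0.27, unadjusted p = 0.00522, adjusted p = 0.615, edgeR), Ccdc153 (1.08) and Rarres2 (0.77). Over the 12 animals Vim and the summed ependymal level, both on the log2 scale, had a Pearson's r of 0.70 (permutation p = 0.0110, 0.0221 adjusted over the 4 relations computed) and a Spearman's rho of 0.67 (permutation p = 0.0200, adjusted 0.0799). Without controls 4 and 13, the animals farthest from the median, r was 0.57. Within the 8 STAT3 KO animals r was 0.63 (exact permutation p = 0.0963, adjusted 0.179), and 4 controls were too few for a value. For Gfap r was 0.33 (permutation p = 0.291, adjusted 0.291) and rho 0.43 (permutation p = 0.163, adjusted 0.163), with r = 0.58 without the same animals and 0.52 within STAT3 KO animals (exact permutation p = 0.197, adjusted 0.197).

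Cerebellar genes moved with Vim as well. Their 6 genes, all detected, summed to 250, 98.1, 116 and 142 CPM in controls 3, 4, 11 and 13, and to 97.6, 123, 172, 113, 304, 150, 119.8 and 581 CPM in STAT3 KO 5, 6, 7, 8, 10, 14, 15 and 16. STAT3 KO 16 and STAT3 KO 10, the animals highest in Vim, were also the highest in cerebellar genes, and STAT3 KO 16 was among the 2 animals high in choroid plexus genes. Over the 12 animals Vim and the summed cerebellar level had a Pearson's r of 0.69 (permutation p = 0.0110, adjusted 0.0221) and a Spearman's rho of 0.59 (permutation p = 0.0460, adjusted 0.0919). The relation over all animals rested on STAT3 KO 16 and STAT3 KO 10, without which r was 0.15. Within the 8 STAT3 KO animals r was 0.89 (exact permutation p = 0.000967, adjusted 0.00387). For Gfap r was 0.36 (permutation p = 0.251, adjusted 0.291) and rho 0.48 (permutation p = 0.122, adjusted 0.162), with r = -0.29 without the same animals and 0.61 within STAT3 KO animals (exact permutation p = 0.134, adjusted 0.179). All 4 relations were chosen after the values were seen, and the part of ependymal, cerebellar or choroid plexus tissue in the Vim difference was not tested. The Vim log2 fold change was 0.27 without STAT3 KO 16 and 0.28 without STAT3 KO 10.

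**Figure D3:**
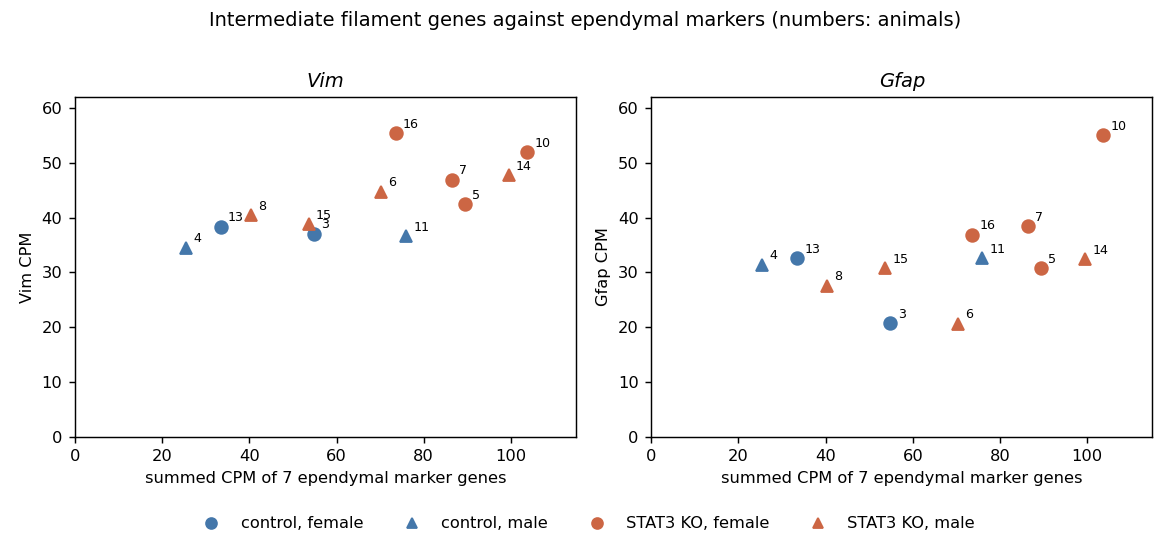
Vim (left) and Gfap (right) CPM against the summed CPM of 7 ependymal marker genes, 1 point per animal labelled with its number, blue for controls and orange for STAT3 KO animals. On the log2 scale r is 0.70 for Vim and 0.33 for Gfap over the 12 animals, and 0.57 and 0.58 without controls 4 and 13, with no test of the difference.

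The 10 marker genes of resting astrocytes summed to 4569 to 4737 CPM in controls and 4476 to 5132 CPM in STAT3 KO animals, with a median log2 fold change of 0.0082, and none passed the adjusted threshold. Unadjusted, 1 was lower and 1 higher, 2 of 10 against 7.66% of all tested genes. The glutamate transporter gene Slc1a2 was lower (log2 fold change -0.13, SE 0.037, unadjusted p = 0.00307, adjusted p = 0.615, edgeR) and its relative Slc1a3 higher (0.28, SE 0.11, unadjusted p = 0.0215).

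The receptors at the cell surface were Cd44 and S1pr3. Cd44 (chr2:102811141-102901665) binds hyaluronan and is raised on reactive astrocytes and on leukocytes. Cd44 stood at 1.73, 1.15, 1.26 and 1.64 CPM in controls 3, 4, 11 and 13. It stood at 2.75, 2.32, 2.23, 1.69, 1.83, 1.65, 1.96 and 1.32 CPM in STAT3 KO 5, 6, 7, 8, 10, 14, 15 and 16. The groups overlapped, with 5 of 8 STAT3 KO animals above all controls and STAT3 KO 8, 14 and 16 within the control range. With 32 to 78 counts per library, the log2 fold change was 0.43 (SE 0.19, 95% interval 0.016 to 0.83, unadjusted p = 0.0427, adjusted p = 0.646, edgeR; exact permutation p = 0.0485).

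The unadjusted Cd44 value rested on single animals. The edgeR p rose to 0.134 without control 4, 0.108 without control 11, 0.0753 without STAT3 KO 5, 0.0693 without STAT3 KO 6, 0.0686 without STAT3 KO 7 and 0.0536 without STAT3 KO 15. The exact permutation p was 0.158, 0.127, 0.0697, 0.0818, 0.0788 and 0.0667 without the same animals, 0.0667 without STAT3 KO 10 and 0.0545 without control 13. The log2 fold change kept its sign in all of these, between 0.33 and 0.53 in edgeR's fit over the 12 fits that each left out 1 animal.

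S1pr3 (chr13:51408639-51422797) encodes a receptor for sphingosine 1-phosphate. S1pr3 stood at 10.1, 12.5, 12.1 and 10.8 CPM in controls 3, 4, 11 and 13 and at 11.5, 11.5, 10.8, 12.8, 12.5, 11.97, 10.1 and 11.3 CPM in the STAT3 KO animals in the same order. It was the steadiest of the 8 genes, with a within-genotype SD of 0.12 on the log2 scale. Its log2 fold change was -0.0042 (SE 0.078, 95% interval -0.17 to 0.16, adjusted p = 0.998, edgeR).

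Among the secreted proteins, Serpina3n (chr12:104406729-104414329), a serine protease inhibitor of reactive astrocytes and oligodendrocytes, had an even level. Serpina3n stood at 29.9, 29.6, 34.4 and 29.1 CPM in controls 3, 4, 11 and 13 and at 29.5, 37.8, 32.4, 36.7, 29.0, 31.3, 33.5 and 28.5 CPM in STAT3 KO 5, 6, 7, 8, 10, 14, 15 and 16. The genotypes overlapped, with STAT3 KO 6 highest and STAT3 KO 16 lowest. The log2 fold change was 0.051 (SE 0.080, 95% interval -0.12 to 0.22, adjusted p = 0.937, edgeR). Of its 75-base stretches, 1.46% also occur in Serpina3e-ps or Serpina3g, so reads there could be split by counting.

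Ceruloplasmin (Cp, chr3:19957054-20009145) oxidises iron and is an acute phase protein made by astrocytes and choroid plexus. Cp stood at 19.8, 19.3, 16.8 and 24.7 CPM in controls 3, 4, 11 and 13 and at 17.9, 31.0, 18.1, 21.5, 17.5, 20.1, 20.5 and 20.2 CPM in the STAT3 KO animals in the same order. STAT3 KO 6 and control 13 were the highest of their groups. The log2 fold change was 0.028 (SE 0.14, 95% interval -0.26 to 0.32, adjusted p = 0.991, edgeR). The 7 choroid plexus genes, all detected, summed to 8.61 to 12.1 CPM in controls and 9.63 to 13.4 CPM in 6 STAT3 KO animals, but to 231 CPM in STAT3 KO 8 and 228 CPM in STAT3 KO 16, where Cp was 21.5 and 20.2 CPM. The part of choroid plexus tissue in the Cp values was not tested.

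Lipocalin 2 (Lcn2, chr2:32384633-32388252) binds bacterial siderophores and is among the genes most strongly induced in reactive astrocytes, and neutrophils make it too. Lcn2 stood at 0.147, 0.144, 0.0381 and 6.19 CPM in controls 3, 4, 11 and 13. It stood at 0.106, 14.1, 0.177, 0.0721, 0.242, 0.0732, 0.135 and 0.143 CPM in STAT3 KO 5, 6, 7, 8, 10, 14, 15 and 16. STAT3 KO 6 held 396 counts and control 13 held 151, against 1 to 7 counts in the other 10 libraries. STAT3 KO 6 was thus 58.5 times and control 13 was 25.6 times the highest of those 10. The 2 animals belonged to different genotypes and sexes, and the exact permutation p for genotype was 0.939. The fitted log2 fold change differed between tools: it was 0.23 (SE 1.33) in edgeR without the filter and -3.59 in DESeq2, which replaced the STAT3 KO 6 value and gave no p, and the cause of the difference was not tested.

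Timp1 (chrX:20870166-20874735), an inhibitor of metalloproteinases that is induced in injured brain, lay at the limit of detection, with 0 to 6 counts per library and 38 in all. Timp1 ranged from 0.0718 to 0.221 CPM in controls, with control 3 highest, and from 0 to 0.207 CPM in STAT3 KO animals (exact permutation p = 0.980). A genotype difference was not detectable at this depth. The gene lies within Syn1 on the opposite strand, but none of its 75-base stretches of exon sequence occurs in another gene.

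The transcriptional regulators were Cebpd and Bcl3. Cebpd (chr16:15887286-15891031) encodes C/EBP-delta, an acute phase transcription factor. Cebpd stood at 3.90, 2.51, 2.17 and 4.14 CPM in controls 3, 4, 11 and 13. It stood at 2.36, 6.14, 1.73, 2.13, 3.11, 2.56, 3.58 and 2.64 CPM in STAT3 KO 5, 6, 7, 8, 10, 14, 15 and 16. STAT3 KO 6 was 1.48 times the next animal, control 13, and the other animals of the genotypes overlapped. The log2 fold change was -0.089 (SE 0.28, 95% interval -0.69 to 0.52, adjusted p = 0.974, edgeR), and the within-genotype SD of 0.52 was larger than that of 96.0% of tested genes. Of its 75-base stretches 13.1% are shared with Spidr on the opposite strand, so its counts are uncertain to that extent.

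Bcl3 (chr7:19808462-19822770) encodes a nuclear protein of the IkappaB family that acts with NF-kappaB subunits. Bcl3 stood at 0.442, 0.790, 0.839 and 1.11 CPM in controls 3, 4, 11 and 13. It stood at 1.198, 1.43, 0.850, 0.973, 0.656, 0.659, 0.810 and 0.536 CPM in the STAT3 KO animals in the same order. STAT3 KO 6 was highest and control 3 lowest, and the genotypes overlapped. With 12 to 40 counts per library, the log2 fold change was 0.15 (SE 0.28, 95% interval -0.45 to 0.74, adjusted p = 0.955, edgeR).

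STAT3 KO 6 and control 13 shared high levels of Lcn2, Cebpd, Cp and Bcl3, but not of the other genes. For Serpina3n, control 13 was the lowest control (29.1 CPM). STAT3 KO 6 was the highest of all 12 animals for 4 of the 8 tested genes (Serpina3n, Cebpd, Cp and Bcl3), against 10.7% of all tested genes, and the lowest for Gfap, 1 of 8 against 9.84%. Control 13 was the highest control for 4 of 8 (Vim, Cebpd, Cp and Bcl3), against 23.9% of all tested genes. For Cebpd, Cp and Bcl3, STAT3 KO 6 was the highest of all 12 animals and control 13 the highest control. This held for 3 of 8 genes, against 3.18% of all tested genes. Lcn2, outside the tested genes, showed this as well. These comparisons were made after the values were seen, and no test was applied.

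A stricter rule, that both animals had at least 20 counts and exceeded 1.2 times the highest of the other 10, held for 12 genes, Lcn2 included but not Cebpd, Cp or Bcl3. After Lcn2 the largest ratio was that of Lrg1, an acute phase glycoprotein gene and known STAT3 target, with 7.54 CPM in STAT3 KO 6 and 3.94 CPM in control 13 against at most 1.06 CPM elsewhere. The complement factor gene Cfb (1.93 and 1.52 CPM, against at most 0.732), the interleukin-1 receptor gene Il1r1 (14.8 and 11.4 CPM, against at most 8.64) and the oncostatin M receptor gene Osmr (12.5 and 8.41 CPM, against at most 6.62) were also among them, with Tmem252, Gm694, Itgal, Ch25h, Il2rg, B3gnt3 and Hrct1. Socs3, the feedback inhibitor of the pathway, was highest in STAT3 KO 6 (2.61 CPM) but within the range of the other 10 animals in control 13, and Stat3 itself was within it in both (65.1 and 64.4 CPM).

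Blood and granulocyte genes moved with STAT3 KO 6 too. The 7 listed genes in the table summed to 24.0 CPM there, to 4.72 CPM in control 13, to 3.16 to 3.59 CPM in the other controls and to 2.19 to 5.05 CPM in the other STAT3 KO animals. The haemoglobin genes Hba-a1, Hbb-bs and Hbb-bt were at 0 in every library. With the read counter and annotation not known, these zeros do not show absence of blood RNA. Alas2, an enzyme of haem synthesis in red cell precursors, had 535 counts in STAT3 KO 6 (19.1 of the 24.0 CPM) and 87 in control 13, against 52 to 135 elsewhere. The neutrophil genes S100a8 and S100a9 had 50 and 82 counts in STAT3 KO 6 and 14 each in control 13, against 0 to 10 and 1 to 15 elsewhere, and the granule gene Ngp had 5 and 0 counts, against 0 to 4. Their part in the Lcn2 values was not tested. Without both animals the log2 fold changes were 0.34 for Vim (unadjusted p = 0.00502), 0.45 for Cd44 (0.0652) and 0.33 for Gfap (0.116).

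**Figure D4:**
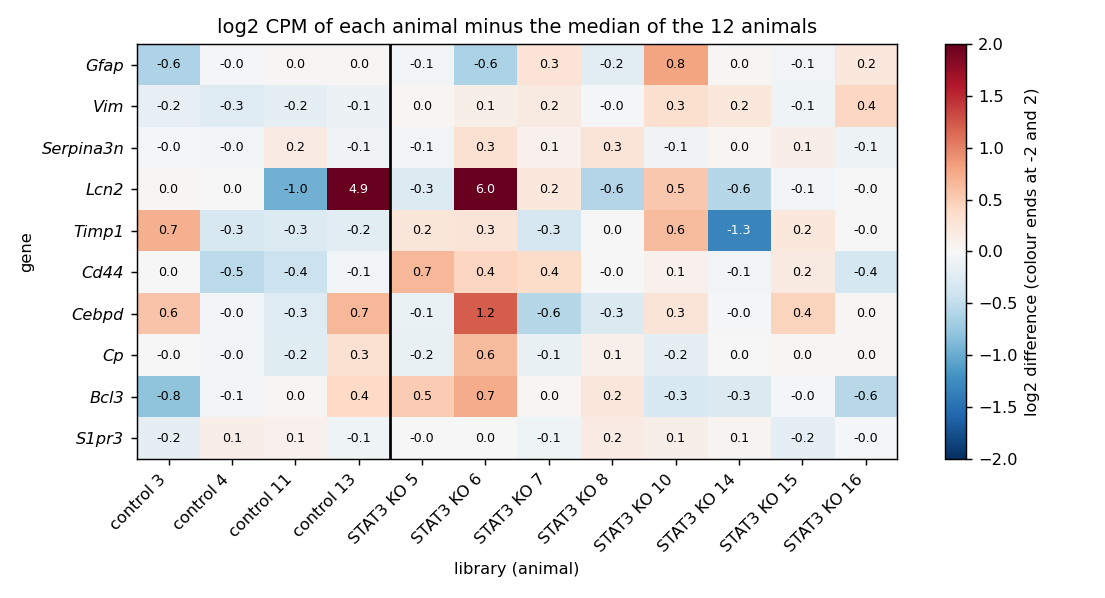
Log2 CPM of each of the 10 genes (rows) in each animal (columns, controls left of the line) minus the gene's median over the 12 animals, red for higher and blue for lower. STAT3 KO 6 and control 13 are high for Lcn2 (6.0 and 4.9), Cebpd (1.2 and 0.7), Cp (0.6 and 0.3) and Bcl3 (0.7 and 0.4), and STAT3 KO 6 is low for Gfap (-0.6).

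Sex was the only other factor in the labels. With genotype as a covariate, Serpina3n was higher in males than in females (29.7 ± 1.38 CPM in 6 females, 33.9 ± 3.12 CPM in 6 males; log2 difference 0.19, SE 0.059, unadjusted p = 0.00529, adjusted p = 0.595, edgeR). Vim was lower in males (45.4 ± 7.42 CPM in females, 40.5 ± 5.00 CPM in males; log2 difference -0.15, SE 0.068, unadjusted p = 0.0430, adjusted p = 0.679, edgeR). These were 2 of 8 genes against 7.2% of all tested genes unadjusted, and after adjustment 0 of 8 against 0.0841%. Within females the difference in mean log2 CPM for Vim, STAT3 KO minus control, was positive (0.38) and within males too (0.27). The Vim values of the genotypes thus lay the same way in both sexes.

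The genotype difference had opposite signs in the sexes for Gfap, Cebpd, Cp and S1pr3. The interaction terms of Gfap, Cebpd and Cp were below 0.05 unadjusted, 3 of 8 against 5.49% of all tested genes, and none passed adjustment. For Gfap the means were 26.6 CPM in 2 control and 40.3 CPM in 4 STAT3 KO females, and 32.0 CPM in 2 control and 27.8 CPM in 4 STAT3 KO males (interaction -0.79 on the log2 scale, SE 0.32, unadjusted p = 0.0259, adjusted p = 0.907, edgeR). For Cebpd the means were 4.02 and 2.46 CPM in females and 2.34 and 3.60 CPM in males (interaction 1.33, SE 0.49, unadjusted p = 0.0169, adjusted p = 0.907, edgeR). For Cp they were 22.2 and 18.4 CPM in females and 18.1 and 23.3 CPM in males (interaction 0.64, SE 0.22, unadjusted p = 0.0112, adjusted p = 0.898, edgeR). With 2 controls per sex, single animals weighed on these values. Leaving out a control leaves a single control of its sex, so only sizes are given here. Without control 11 the interactions were -0.76, 1.24 and 0.55 for Gfap, Cebpd and Cp. That of Cp was 0.48 without control 13, and that of Gfap was -0.51 without control 3. Without STAT3 KO 6 and control 13 together the interactions were -1.03 for Gfap, 0.91 for Cebpd and 0.31 for Cp. Control 3, the lowest control for Gfap, was then the only female control.

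**Figure D5:**
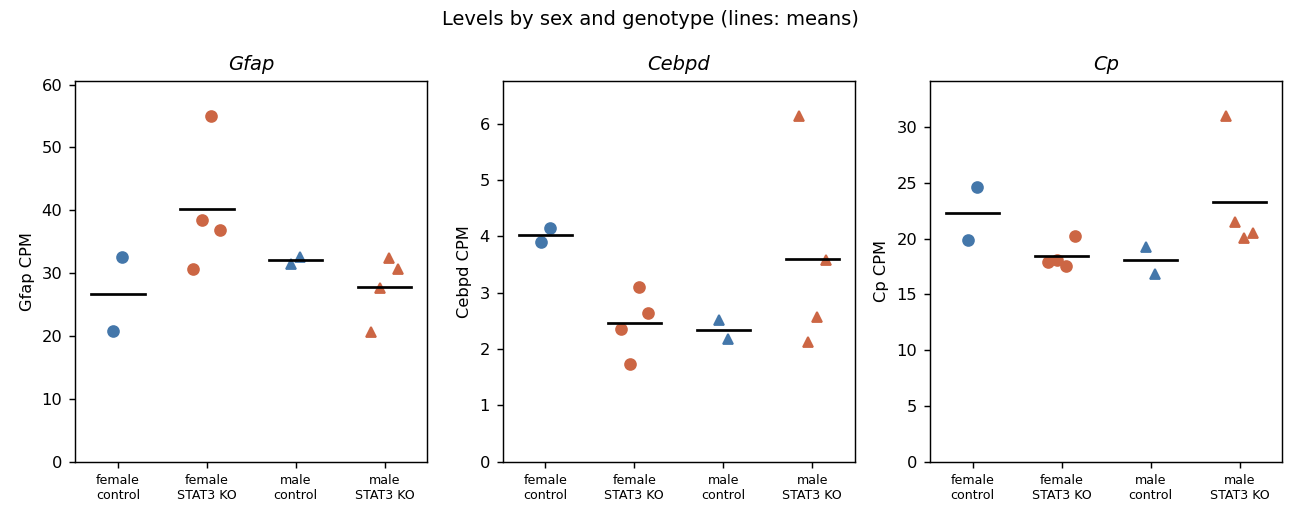
CPM of Gfap, Cebpd and Cp (y axes) in control and STAT3 KO animals of each sex (x axes), 1 point per animal with a line at the mean, circles for females and triangles for males. The means of Cebpd are 4.02 and 2.46 CPM in control and STAT3 KO females and 2.34 and 3.60 CPM in males, with 2 control animals per sex.

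Other genes of the reactive state and of the pathway were read from lists chosen with earlier results of these data known. None of the lists had a gene past the adjusted threshold. Over all tested genes, 7.66% were below 0.05 unadjusted and 3.61% were so and higher in STAT3 KO mice. Of the other genes listed for reactive astrocytes, 9 of 12 were tested, 3 were below 0.05 unadjusted and higher, and 0 were lower. They were the astrocyte transcription factor gene Sox9 (log2 fold change 0.26, SE 0.096, adjusted p = 0.615, edgeR), the matrix gene Tnc (0.49, SE 0.21, adjusted p = 0.620) and complement C3 (1.19, SE 0.55, adjusted p = 0.647). C3 spread widely among STAT3 KO mice, at 4.46 ± 3.54 CPM (SD), against 1.93 ± 0.69 CPM (SD) in controls. The neuroinflammatory astrocyte list had 1 of 11 tested genes below 0.05, the adhesion gene Amigo2 (0.14, SE 0.066, adjusted p = 0.647, edgeR), with a median of 0.12. In the ischaemia-type list, 4 of 9 tested genes were higher and 1 lower unadjusted, among them the growth-associated membrane protein gene Emp1 (0.29, SE 0.12, adjusted p = 0.615, edgeR), the glycosyltransferase gene B3gnt5 (1.04, SE 0.45, adjusted p = 0.630) and, as the lower one, the sphingosine kinase gene Sphk1 (-0.47, SE 0.16, adjusted p = 0.615). B3gnt5 also spread widely among STAT3 KO mice, at 1.47 ± 1.02 CPM (SD), against 0.70 ± 0.14 CPM (SD) in controls. None of 16 other known STAT3 targets was below 0.05 unadjusted, and their median was -0.033. Among 13 tested of 16 gp130 ligands, receptors and kinases, 2 were below 0.05 unadjusted: the ligand Lif was higher (0.67, SE 0.23, adjusted p = 0.615, edgeR) and its receptor Lifr lower (-0.20, SE 0.070, adjusted p = 0.615), while the ligands Il6, Cntf and Osm were too low to test.

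The remaining cell type lists were read against the 7.66% of all tested genes below 0.05 unadjusted. Microglia (0 of 10, median log2 fold change -0.027), endothelial cells (0 of 8, -0.029), mural cells (0 of 7, -0.10) and serotonergic cells (0 of 7, 0.031) had none. Oligodendrocytes had 1 of 8, lower (Mag, the myelin-associated glycoprotein gene, -0.13), with a median of -0.050, and meningeal fibroblasts had 1 of 7, higher (Dcn, 0.20), with a median of 0.060. Choroid plexus genes had 2 of 5 higher with a median of 0.86, forebrain neuron genes 2 of 7 lower with a median of -0.93, and cerebellar genes 2 of 6 higher with a median of 0.80. Forebrain genes summed to 311 CPM in control 4 against 35.7 to 109 CPM elsewhere, and cerebellar genes to 581 CPM in STAT3 KO 16 against 97.6 to 304 CPM elsewhere. Alas2, the only blood gene tested, had a log2 fold change of 0.59 (unadjusted p = 0.298, edgeR).

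The genes whose levels followed Gfap most closely over the 12 animals, among 13394 with a mean of at least 50 counts, were Kit (Pearson's r = 0.91), Usp22 (0.88), Tpbg (0.87), Ptprk (0.86) and Gpc4 (0.86). All 5 peaked in STAT3 KO 10, as Gfap did, and 4 were lowest in control 3 and Gpc4 in STAT3 KO 6, the lowest animals for Gfap. Without STAT3 KO 10 and STAT3 KO 6, r was 0.90 for Kit, 0.79 for Usp22, 0.86 for Tpbg, 0.77 for Ptprk and 0.76 for Gpc4. The other 9 reactive glia genes were less like Gfap, from 0.50 for Vim to -0.58 for Cp, and without the same 2 animals Cp was at -0.14 and Serpina3n moved from -0.47 to -0.069. These coefficients describe likeness only and were picked as the largest of many.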

How the data were processed

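DR tissue of 12 mice (4 controls, 8 STAT3 KO) gave 1 RNA library per animal. The authors mapped the reads to mm10, and the submitters' processing notes list STAR 2.5.0b, bcl2fastq and DESeq2 1.6.3. The read counter, the annotation and the use of strand are not given in the sources used here. The deposited files hold raw counts per gene symbol. Reads assigned to no gene or to several, 13.9 to 15.8% per library, were left out. Depth was 24379588 to 29645210 counts. The floor of 3 counts covers counting error only. No library was a copy of another.

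Counts were tested with edgeR 4.0.16 (quasi-likelihood test, TMM normalisation, filterByExpr with 10 counts per library and 15 in total, no covariate) on the whole table, with Benjamini-Hochberg adjustment and a threshold of 0.05. DESeq2 1.42.0, without independent filtering, was an alternative, and scripts were tested on simulated data. Permutation tests used log2 CPM with a prior count of 2, and 100000 resamples where 12 animals were correlated. The genes and lists were chosen with earlier results of these data known. All 10 genes are named, with Stat3, Slc6a4 and Tph2 as checks, up to 3 genes per list with the smallest unadjusted p and the 5 genes most like Gfap. Genes beyond these, in the pattern of STAT3 KO 6 and control 13, were chosen after their values were seen. Positions and lengths are from GENCODE vM21, promoters from RefSeq.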

Additional observations from a re-analysis of the deposited data

Results flagged for a closer look

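An animal stood far from the rest of its genotype (gap to the nearest animal over the range of log2 CPM, above Dixon's 95% critical value) in 6 of 22 groups examined, where chance gives about 1.1. Gfap was low in control 3 (gap over range 0.920). Serpina3n was high in control 11 (0.831). Lcn2 was high in control 13 (0.830) and in STAT3 KO 6 (0.831). Timp1 was high in control 3 (0.903), on 6 counts. Cp was high in STAT3 KO 6 (0.640). The Cp difference between genotypes had opposite signs in the sexes. The difference in mean log2 CPM, STAT3 KO minus control, was -0.26 in females, where all 4 STAT3 KO mice lay below the control mean. It was 0.34 in males, where all 4 lay above the control mean. The test of the interaction between genotype and sex gave an unadjusted p of 0.0112 and an adjusted p of 0.898 (edgeR), and so did not pass.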

How the results depend on the processing

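No gene of the set passed the adjusted threshold for genotype, sex or their interaction under any alternative run. Vim stayed below 0.05 unadjusted throughout, and its genotypes did not overlap with TMM library sizes either (leaving out animals cannot make them overlap). The count of genes below 0.05 unadjusted was 2 or 1 when single animals were left out, and 1 without control 13 and STAT3 KO 6 (chosen after seeing the data). The permutation count was 2 or 1 when single animals were left out, and 1 on CPM without logarithm (Cd44 p = 0.0606), with TMM library sizes (0.0586) and without control 13 and STAT3 KO 6 (0.0917). The gene lost was Cd44 each time. Log2 fold changes near 0 changed sign. Serpina3n was -0.0096 without control 13 and STAT3 KO 6. Cebpd was 0.013 without STAT3 KO 8 and STAT3 KO 16. S1pr3 was 0.027 without control 4, STAT3 KO 8 and STAT3 KO 16. Lcn2 was -3.59 in DESeq2. With single animals left out, Cebpd ranged from -0.32 to 0.060, Cp from -0.075 to 0.14, Bcl3 from -0.050 to 0.34, S1pr3 from -0.053 to 0.048 and Stat3 from -0.018 to 0.0047. The cause of these changes was not tested. Over the table, calls after adjustment numbered 0 in edgeR's quasi-likelihood test, 3 in its likelihood ratio test, 6 in DESeq2, 1 without control 4 and 2 without control 4, STAT3 KO 8 and STAT3 KO 16. No paired analysis was possible because the labels give no litter and the genotypes share no replicate number. Depth limits Timp1 and, outside STAT3 KO 6 and control 13, Lcn2.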
